A study of Mus musculus with 24 samples.

Results

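The nuclei described here are those that the authors named NN-MGC, the microglia of the mouse amygdala. They were taken as the NN-MGC columns of the deposited count tables, which hold the summed counts of that cell type in each library. They numbered 1151 of 21648 nuclei in the RNA libraries and 97 of 19119 nuclei in the ATAC libraries, which measure open chromatin. The name was checked against the microglial genes Csf1r, Cx3cr1 and P2ry12, and all 3 were higher in NN-MGC than in any of the 20 other cell types compared.

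Amygdala tissue came from adult male mice, 10 to 16 weeks old, of 2 inbred strains labelled BL6 and DBA, with no treatment named in the labels. Each strain had 2 libraries per assay, and each library pooled about 2 animals. Nuclei for RNA were sorted to 75% NeuN-positive and 25% NeuN-negative, NeuN being a neuronal nuclear protein, while the ATAC nuclei were gated by DNA content alone. Within each strain the libraries carry the table's own numbers, 2 and 3. Levels are CPM, the count of a gene scaled to the total of its column.

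Microglia are the resident macrophages of the brain. They depend on signalling through the CSF1 receptor, survey the tissue through purine and chemokine receptors, and clear debris and synaptic material with the help of complement and phagocytic receptors. The factor PU.1, made from Spi1, is known as a main regulator of their genes.

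NN-MGC held between 505813 and 1166287 RNA counts per library, from 466 and 318 nuclei in BL6 and 169 and 198 in DBA. At 2635 counts per nucleus it was the shallowest of the 21 types. Its ATAC columns held 259050 to 486088 counts from 12 to 35 nuclei each. DBA library 2 had the deepest nuclei, with 3502 RNA counts each against 2419 to 2555 in the other libraries. Replicate libraries differed by more than sampling noise and were all kept.

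All 18 genes of the microglial marker list had their highest level in NN-MGC. Csf1r, the receptor for CSF1 and IL-34, stood at 1237 and 1334 CPM in BL6 and at 1225 and 1042 CPM in DBA. The next highest type, NN-VLMC, reached 27.3 CPM. Cx3cr1, the fractalkine receptor, ran from 1149 to 1652 CPM over the 4 libraries, 18.5 times the next type. P2ry12, an ADP receptor, was less exclusive. Its 724 to 995 CPM in NN-MGC were 4.37 times the 202 CPM of Exc-Vwa5b1 neurons. In every library each of these 3 genes lay above the level of the next type. These comparisons carry no test, since the authors named the type from its genes.

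**Figure D1:**
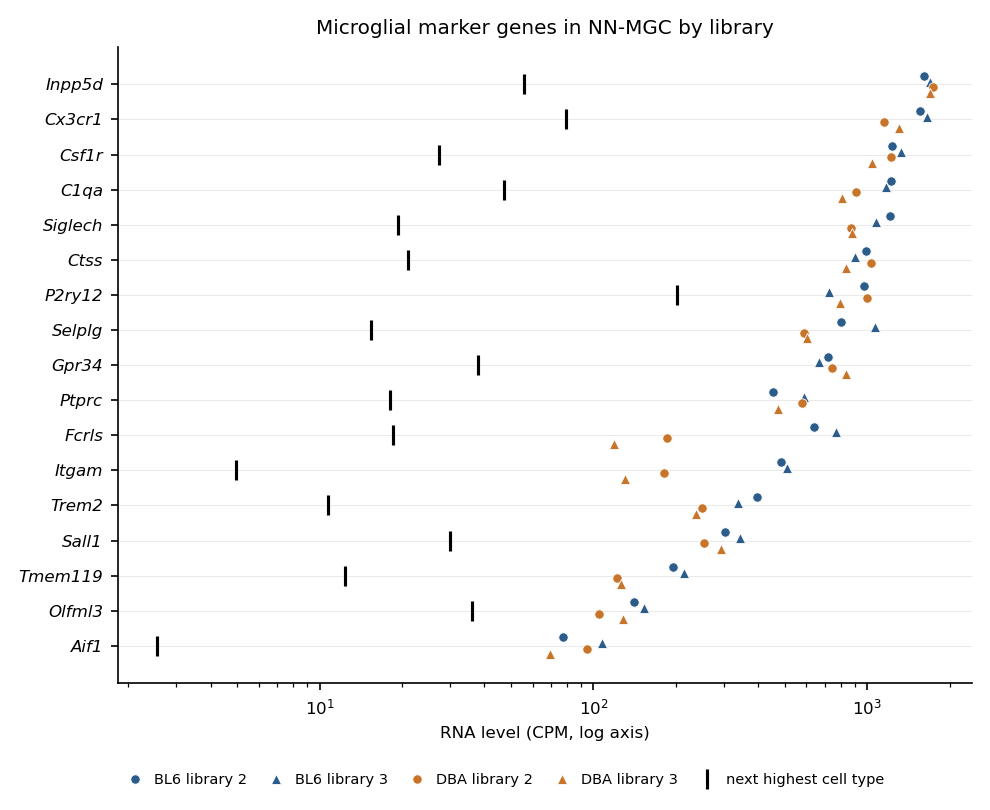
RNA level (CPM, log axis) of 17 microglial marker genes in the 2 BL6 and 2 DBA libraries of NN-MGC, with a black bar at the level of the next highest cell type. Every point lies above its bar, and for Fcrls and Itgam the DBA points lie well below the BL6 points.

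Of 10714 genes at 10 CPM or more in NN-MGC, 3136 were highest there and 281 exceeded the next type at least 10-fold. Bin2, a membrane-bending protein of leukocytes, led the ratio at 100 CPM or more, with 395 CPM against 1.57 CPM in Inh-Drd2 neurons. The inhibitory receptors Havcr2 (192 CPM) and Cd33 (274 CPM) followed. The other genes among the 15 with the largest ratio were Gm50035, Mir142hg, Il21r, Gm2629, Ly86, Arhgap45, Csf3r, Cd300c2, Ncf1, Itgam, Pld4 and Tmem273. Ly86, a partner of the toll-like receptor relative RP105, stood at 1030 CPM and Arhgap45 at 1037 CPM. The 5 most abundant transcripts were Malat1 (62203 CPM), Gm42418 (5160 CPM), Csmd3 (4809 CPM), Cst3 (4620 CPM) and Cmss1 (3863 CPM). Only Csmd3 and Cst3 of these were highest in NN-MGC. Cst3, the protease inhibitor cystatin C, exceeded astrocytes 5.45-fold, whereas Csmd3 was 1.19 times the level in Inh-Tshz1 neurons.

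Markers of other brain cells were present at low levels. The summed level of the 12 neuronal markers was 2359 CPM, 8.97% of that in the richest neuronal type. Astrocyte markers summed to 402 CPM, 4.12% of the astrocyte level, and oligodendrocyte markers to 316 CPM, 1.85% of the oligodendrocyte level. The endothelial gene Cldn5 had 1 count in all 4 libraries together, and the T cell gene Cd3g had none. The lists of these cells were not empty. All 10 endothelial and mural markers had a count, and they summed to 77.8 CPM, against 5170 CPM in NN-Endo-SMC-Peri. Of 10 blood leukocyte markers present in the counts, 9 had a count in NN-MGC, with a sum of 41.9 CPM. That sum was highest in Inh-Lypd6b neurons, at 67.96 CPM, although 4 members were highest in NN-MGC. The border macrophage list was different, because its 11 genes summed to 675 CPM and were as a list highest in NN-MGC. Mrc1, the mannose receptor of perivascular macrophages, had 124 and 101 counts in BL6 and 194 and 84 in DBA. Over the libraries this list summed to 441 and 672 CPM in BL6 and to 1149 and 664 CPM in DBA, so DBA library 2 stood highest. That library also had the most oligodendrocyte precursor signal, 573 CPM against 123 to 195 CPM in the others.

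Microglia made up 5.77% and 7.18% of RNA nuclei in BL6 (95% Wilson intervals 5.28 to 6.30% and 6.46 to 7.98%) and 5.89% and 3.15% in DBA (5.09 to 6.82% and 2.75 to 3.62%). The means were 6.48 ± 1.00% and 4.52 ± 1.94% (SD, n = 2), and the strains overlapped (exact permutation test, two-sided, p = 0.667). With 2 libraries against 2 the smallest possible p is 0.333. As a share of non-neuronal nuclei they were 15.8% and 13.6% in BL6 and 12.8% and 10.5% in DBA, which did not overlap. The sort to a set ratio of NeuN-positive nuclei bears on the share of all nuclei. The share of non-neuronal nuclei still varied between the RNA libraries. It was 2954 of 8079 and 2346 of 4426 in BL6, and 1316 of 2867 and 1888 of 6276 in DBA. In ATAC, microglia were 0.406% and 0.490% of nuclei in BL6 and 0.325% and 0.771% in DBA. Few ATAC nuclei were non-neuronal, 79 of 3941 and 167 of 6943 in BL6 and 67 of 3694 and 135 of 4541 in DBA. Of the non-neuronal ATAC nuclei they were 20.3% and 20.4% in BL6 and 17.9% and 25.9% in DBA, which overlapped and had the higher mean in DBA. The intervals cover counting error only.

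Open chromatin followed the marker genes in part. ATAC counts were summed over peaks that lay at most 2 kb from the start or end of a gene, in mm10 coordinates. At P2ry12 this gave 28.8 CPM in NN-MGC, 0.919 CPM in the other glia (astrocytes, oligodendrocytes and their precursors together) and 2.34 CPM in neurons. At Csf1r the values were 27.5, 1.84 and 2.95 CPM. Over the whole marker list, 15 of 18 genes had a peak. Their 26 peaks summed to 468 CPM in NN-MGC, 171 CPM in other glia and 107 CPM in neurons, the highest of the 18 types with at least 500000 ATAC counts. No peak lay within 2 kb of the ends of Cx3cr1, Ctss or Itgam. Spi1, which encodes PU.1, had 13 counts in NN-MGC and 4 types stood above it. Sall1, a transcription factor of microglia, was nearly as open in other glia (78.5 CPM) as in NN-MGC (82.4 CPM). Astrocytes reached 111 CPM there, although Sall1 RNA was highest in NN-MGC at 301 CPM, with 29.9 CPM in the next type.

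**Figure D2:**
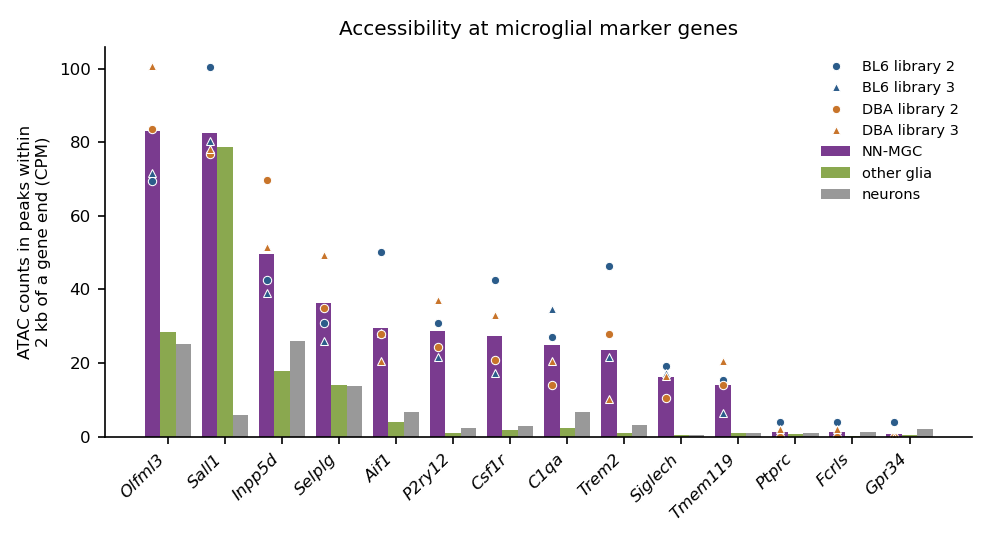
ATAC counts (CPM) in peaks within 2 kb of the ends of 14 microglial marker genes that have such a peak. Bars give NN-MGC, other glia and neurons over all libraries, and points give the 4 NN-MGC libraries; NN-MGC exceeds other glia at P2ry12 (28.8 against 0.919 CPM) but hardly at Sall1 (82.4 against 78.5 CPM).

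Single peaks were described where NN-MGC had at least 50 counts, which held for 6394 peaks. Of these 794 were highest in NN-MGC among all types. Vascular types had so few ATAC nuclei that 1 count in NN-Endo-SMC-Peri equalled 8.96 CPM, against 0.670 CPM in NN-MGC. Among the 18 types of at least 500000 counts, a restriction chosen after seeing the data, 1751 were highest in NN-MGC. The peak with the largest ratio to the next type lay at chr14:61970988-61971780, where 66 counts gave 44.2 CPM, 4.93 times the next type, and no RefSeq gene was within 10 kb. Others among the first 10 by this ratio overlapped Rgs10, a regulator of G protein signalling (54 counts, 36.2 CPM), and Pik3r5, a subunit of phosphoinositide 3-kinase gamma (64 counts, 42.9 CPM). In the restricted comparison a peak inside Csf1r led, with 107 counts and 71.7 CPM against 4.32 CPM in oligodendrocyte precursors.

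RefSeq promoter sequences of the reference build GRCm38.p6 (mm10), 250 bases before to 50 after the start, were searched on both strands for the PU.1 motif GAGGAAGT. Of 27025 genes with a promoter, 3.28% had a match. Among 99 promoters of genes at 100 CPM or more in NN-MGC and at least 10 times the next type, 19 had one, or 19.2%. For the RUNX motif TGTGGTT the shares were 5.37% of all promoters and 9.09% of these 99, and for the C/EBP motif TTGCNNAA they were 10.8% and 12.1%. Among 7355 promoters of genes that entered the strain test in NN-MGC, the shares were 3.32% for PU.1, 3.39% for RUNX and 7.74% for C/EBP. A match is a string of letters and not a measured binding site. Of the 32 marker and high-ratio genes, 22 had a promoter entry. The 250 bases before the start are given below for Inpp5d, a lipid phosphatase that restrains immune receptors, and Havcr2, which both have the PU.1 motif close to the start. Trem2 is given because its promoter lies in a peak with 35 NN-MGC counts, at 23.4 CPM against 0.919 CPM in other glia, without that motif. C1qc, Nlrp1b and Ctsc were added after their values were seen, since each differed between the strains in RNA and carries the motif. Bcl2a1b and the ribosomal gene Rpl13a also met this rule, with the motif 148 and 44 bases before the start, but are not printed. Whether the motif bears on strain differences was not tested. Capitals mark the PU.1 motif on either strand, and all are written 5′ to 3′ on the strand of the gene.
Inpp5d, chr1:87620062-87620311, plus strand: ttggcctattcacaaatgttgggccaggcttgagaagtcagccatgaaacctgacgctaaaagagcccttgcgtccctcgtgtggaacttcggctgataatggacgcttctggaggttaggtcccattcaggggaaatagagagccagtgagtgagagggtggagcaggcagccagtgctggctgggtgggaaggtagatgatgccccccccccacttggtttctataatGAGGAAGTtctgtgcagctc
Havcr2, chr11:46454681-46454930, plus strand: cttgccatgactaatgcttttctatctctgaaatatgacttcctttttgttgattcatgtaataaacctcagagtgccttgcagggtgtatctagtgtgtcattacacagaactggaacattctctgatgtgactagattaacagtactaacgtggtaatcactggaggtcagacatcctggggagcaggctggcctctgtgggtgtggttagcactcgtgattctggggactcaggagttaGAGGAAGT
Trem2, chr17:48346151-48346400, plus strand: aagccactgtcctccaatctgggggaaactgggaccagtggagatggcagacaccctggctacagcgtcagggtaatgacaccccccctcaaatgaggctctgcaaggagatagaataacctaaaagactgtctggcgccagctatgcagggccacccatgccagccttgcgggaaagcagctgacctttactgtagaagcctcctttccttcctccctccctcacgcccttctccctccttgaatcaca
C1qc, chr4:136892915-136893164, minus strand: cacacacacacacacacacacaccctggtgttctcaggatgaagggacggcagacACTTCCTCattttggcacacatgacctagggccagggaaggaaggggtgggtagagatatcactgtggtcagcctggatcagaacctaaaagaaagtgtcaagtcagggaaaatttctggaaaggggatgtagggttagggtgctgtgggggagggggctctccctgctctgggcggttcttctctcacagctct
Nlrp1b, chr11:71230734-71230983, minus strand: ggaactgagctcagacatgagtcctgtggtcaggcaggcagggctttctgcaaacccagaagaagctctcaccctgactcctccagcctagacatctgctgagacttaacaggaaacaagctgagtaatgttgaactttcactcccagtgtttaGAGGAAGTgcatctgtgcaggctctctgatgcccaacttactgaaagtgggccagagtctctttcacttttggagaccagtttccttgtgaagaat
Ctsc, chr7:88277835-88278084, plus strand: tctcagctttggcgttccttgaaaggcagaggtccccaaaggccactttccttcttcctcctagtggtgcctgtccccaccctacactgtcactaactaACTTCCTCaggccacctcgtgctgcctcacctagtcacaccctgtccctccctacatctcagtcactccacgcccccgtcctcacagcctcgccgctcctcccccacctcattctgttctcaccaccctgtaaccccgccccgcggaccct

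The promoter of Ctsc, which encodes the lysosomal protease cathepsin C, lay in a peak with 44 counts in NN-MGC, at 29.5 CPM against 6.66 CPM in other glia. No peak of the table covered the promoters of Inpp5d, Havcr2, C1qc or Nlrp1b. The motif began 20 bases before the start in Inpp5d, 8 in Havcr2, 195 in C1qc, 96 in Nlrp1b and 151 in Ctsc.

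The second comparison asked which microglial genes differed between DBA and BL6. Differences are DBA minus BL6 on the log2 scale, from edgeR's quasi-likelihood test with Benjamini-Hochberg adjustment over all genes tested, and a gene is called at an adjusted p under 0.05. Of 9427 genes tested, 506 (5.37%) were called, with 196 (2.08%) higher and 310 (3.29%) lower in DBA. Complement C1q genes, the integrin Itgam and the Fc receptor relative Fcrls were lower in DBA, whereas the transcripts of Csf1r and P2ry12 were not called. Among called genes, 56 were at least 4-fold higher and 114 at least 4-fold lower. The median log2 difference over all genes tested was -0.002. Without DBA library 2, 200 genes were called, and 192 of them were among the 506. Without DBA library 3 the count was 317. Only genes with at least 10 counts in both strains, summed over every cell type, entered the test. This filter was set because earlier results of these data showed the strains counted under different gene names. Whether such naming bears on genes that passed it with almost no counts in a single strain was not tested. With every deposited gene entered, 821 were called, 422 higher and 399 lower. With libraries as the unit, p-values measure only the spread between these pools.

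Stab2 and Ccr6 were among the genes with the largest rise in DBA. Stab2, a scavenger receptor for hyaluronan (chromosome 10, 86841194 to 87008038), had 1 and 1 counts in BL6 and 195 and 183 in DBA. Scaled to depth the ratio was 333, with a counting interval of 91.6 to 2762 (adjusted p = 8.88e-17). It was also far apart in the other glia, with 5.64 CPM in the BL6 libraries against 229.9 CPM in those of DBA. Ccr6, the receptor for the chemokine CCL20 (chromosome 17, 8236041 to 8258519), had 7 and 5 counts in BL6 and 100 and 108 in DBA, where it stood at 169 and 214 CPM, a log2 difference of 4.95 (SE 0.317, adjusted p = 9.45e-13). Both genes were close to absent from the BL6 counts of NN-MGC and plain in both DBA libraries.

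Gatm, an enzyme of creatine synthesis, rose from 36.9 and 36.4 CPM to 328 and 304 CPM (log2 3.15, SE 0.202, adjusted p = 9.45e-13). Ccdc85a, a coiled-coil protein gene, rose from 38.6 and 23.4 CPM to 740 and 749 CPM (log2 4.57, SE 0.191). Mlycd, a malonyl-CoA decarboxylase, rose 3.46 on the log2 scale, the ATP synthase subunit Atp5o 2.66 and Nhs 3.37. Nhs was uneven in DBA, with 406 CPM in library 2 and 186 CPM in library 3. Sfi1 (97.7 and 153 against 3223 and 3157 CPM), Pisd and Slfn8 also rose, by 4.75, 3.68 and 3.66. Sfi1, Pisd and Slfn8 have near copies that can share reads, which makes their counts uncertain.

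Genes lower in DBA included the mitochondrial genome. Of 12 mitochondrial genes tested, 11 were called lower. The cytochrome oxidase transcript mt-Co2 had 1218 and 1013 counts in BL6 and 1 and 0 in DBA, and mt-Co3 had 1765 and 1597 against 0 and 4. The other glia showed the same gap in mt-Co2, with 17573 counts in BL6 and 8 in DBA. The cause, including any difference in gene names between the strains, was not tested.

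Atp8a2, a phospholipid flippase (chromosome 14, 59647531 to 60086914), fell from 670 and 581 CPM in BL6 to 13.5 and 23.7 CPM in DBA, a log2 difference of -5.04 (SE 0.232, adjusted p = 3.91e-16). The G protein subunit Gng10 stood at 113 and 131 CPM against 3.38 and 3.95 CPM, and Cox16, an assembly factor of cytochrome oxidase, at 310 and 289 against 11.8 and 13.8 CPM. Phyhd1 (log2 -4.53) and Myo18b (-4.67) were lower as well. Trim30d and Trim12a belong to a cluster of similar TRIM genes, so their counts are uncertain. Trim30d had 133 and 63 counts in BL6 and none in DBA, at least 37.0-fold lower when 3 counts are taken as the limit for the DBA sum. Trim12a had 152 and 68 counts against 1 and 0.

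**Figure D3:**
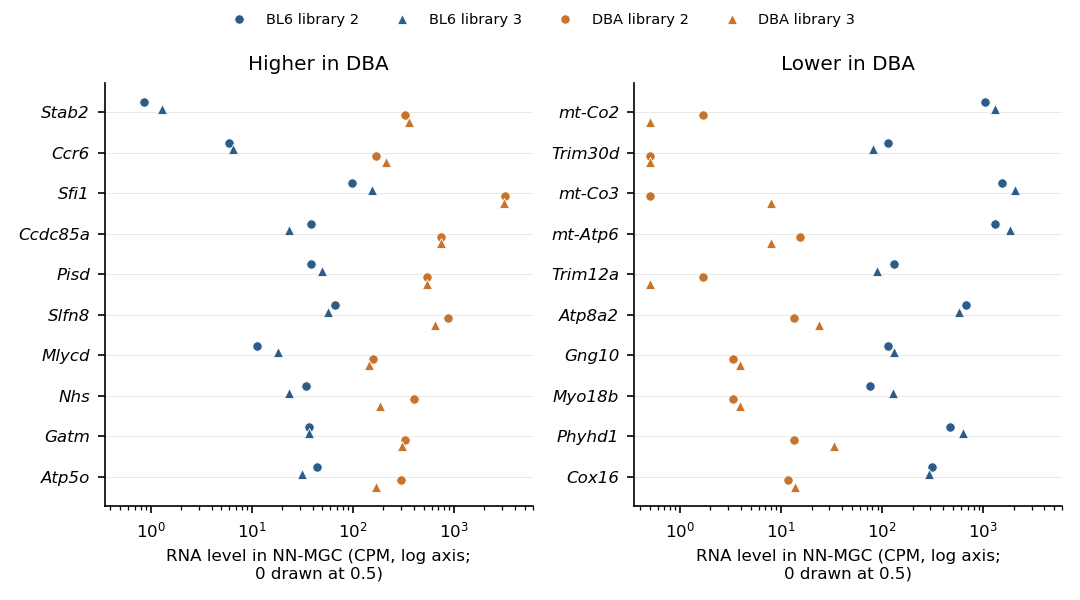
RNA level in NN-MGC (CPM, log axis, with 0 drawn at 0.5) of the 20 genes named for the size of their change, 10 in each direction. Points are the 4 libraries, and for each of the 20 genes both DBA libraries lie on 1 side of both BL6 libraries. The genes were picked from the called genes, so this separation is no further support.

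Among the 18 microglial markers, 6 were called lower in DBA and none higher, with a median log2 difference of -0.30. Fcrls (chromosome 3, 87250736 to 87263765) stood at 638 and 768 CPM in BL6 and at 186 and 119 CPM in DBA, a log2 difference of -2.14 (SE 0.177, adjusted p = 9.64e-09). Itgam, the CD11b subunit of complement receptor 3 (chromosome 7, 128062640 to 128118491), stood at 486 and 511 against 181 and 130.5 CPM (log2 -1.62, SE 0.164, adjusted p = 1.91e-08). These 2 genes kept their call in every alternative that tested them. Tmem119 (log2 -0.67), the P-selectin ligand Selplg (-0.59), the lipid-sensing receptor Trem2 (-0.55) and C1qa (-0.43) had smaller differences, and each lost its call without either DBA library and by DESeq2 (adjusted p 0.0929 to 0.642 by DESeq2). Leaving out either DBA library thus left 2 of 18 markers called. The other 12 were not called, among them Cx3cr1 (-0.34, adjusted p = 0.0939), Csf1r (-0.13, 0.692) and P2ry12 (0.12, 0.796).

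Of 8 complement genes tested, 4 were lower in DBA and none higher, with a median of -0.50. C1qa, C1qb and C1qc encode the chains of C1q, which starts the classical pathway, and lie side by side on chromosome 4. C1qc stood at 792 and 801 CPM in BL6 and at 382 and 275 CPM in DBA (log2 -1.22, SE 0.147, adjusted p = 5.46e-07). C1qb stood at 899 and 827 against 409 and 439 CPM (-0.98, SE 0.132, adjusted p = 3.88e-06), and C1qa at 1218 and 1175 against 909 and 811 CPM. For all 3 chains both DBA libraries lay below both BL6 libraries. All 506 called genes were separated by strain in this way, so it is no further support. DESeq2 also called C1qb and C1qc lower, but not C1qa (adjusted p = 0.283). The fourth called gene was Itgam.

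For this and every other list, the share over all genes tested was 5.37% called, with 2.08% higher and 3.29% lower. In the list of CSF1 receptor signalling, 1 of 12 genes was called, the BCL2 relative Bcl2a1b (48.9 and 35.1 against 6.76 and 17.8 CPM). With 12 genes tested, 1 call is near that share. Of 17 homeostatic receptors and sensors, 3 were lower (Fcrls, Selplg and Tmem119) and Gpr183, an oxysterol receptor, was higher at 0.61. Among 10 genes of TGF-beta and TAM receptor signalling, the phagocytic receptor Mertk was lower (1530.5 and 1860 against 1054 and 1064 CPM, log2 -0.63) and its ligand Pros1 was higher (0.54). Of these, Gpr183, Pros1 and Mertk lost their call without either DBA library, and Bcl2a1b without DBA library 2. Tgfbr1 stood at 2345 and 2421 CPM in BL6 and 2455 and 2616 CPM in DBA. Of 17 Fc receptor and immunoreceptor genes none was called by edgeR or DESeq2, and 0 had an unadjusted edgeR p under 0.05. Among transcription factors of microglia, Spi1 (-0.26) and Mef2c (-0.02) were not called.

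In the list of cytokines, chemokines and receptors, 2 of 18 genes were higher and 3 lower. Besides Ccr6, the chemokine Ccl6 was higher (19.7 and 11.7 against 67.6 and 79.1 CPM, log2 2.20, adjusted p = 2.94e-05). The cytokine receptor chains Il10rb (-1.53) and Ifngr1 (-0.67) were lower, and both lost their call by DESeq2 and without either DBA library.

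Of 12 interferon-related genes tested, 3 were called lower, 1 higher and 8 neither, with a median of -0.41. Without DBA library 2 only Ifitm10 of this list was called. Ifitm10, a member of the IFITM family (chromosome 7, 142325835 to 142373779), fell from 585 and 556 CPM in BL6 to 71.0 and 107 CPM in DBA (log2 -2.65, SE 0.179, adjusted p = 3.16e-12). Trim30a was lower (-1.06) and Ifitm2 higher, with 3 and 2 counts against 19 and 12. Of 21 pattern recognition and inflammasome genes, the sensor Nlrp1b fell (222 and 265 against 27.0 and 17.8 CPM, log2 -3.36, SE 0.258, adjusted p = 5.80e-11) and Ly86 rose (938 and 773 against 1450 and 1141 CPM, 0.65). Ly86 lost its call without DBA library 2. Nlrp1b belongs to a family of near-identical copies, so reads may be shared between them.

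Of 15 MHC class I genes tested, H2-D1 was called higher (0.82) and the peptide transporter Tap2 lower (-1.47). By DESeq2, and without either DBA library, none of this list was called (DESeq2 adjusted p 0.587 for H2-D1 and 0.692 for Tap2). None of 9 MHC class II genes was called in the main edgeR test, with 1 at an unadjusted p under 0.05 and none called by DESeq2, although their median was 0.83. H2-Ab1 was called higher in some edgeR alternatives, among them no filter and only genes higher in NN-MGC than in other nuclei. Cd74, the invariant chain, had 4 and 41 counts in BL6 and 111 and 2 in DBA, so that libraries of the same strain differed more than the strains did. The summed list stood at 412 and 529 CPM in BL6 and 858 and 386 CPM in DBA, highest in DBA library 2, which also led the border macrophage markers. The part of such cells in this list was not tested.

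Among 33 lysosomal and phagocytic genes 4 were lower and 2 higher. Cathepsin L (Ctsl) fell from 232 and 213 CPM to 52.4 and 87.0 CPM (log2 -1.65, SE 0.217, adjusted p = 2.80e-06), while Lgmn (-0.50), Ctsd (-0.46) and Laptm5 (-0.50) were lower. Ctsc (0.65) and the scavenger receptor Msr1, with 4 and 3 against 25 and 11 counts, were higher. Of these 6 genes only Ctsl was still called without DBA library 2, and Lgmn, Ctsd, Laptm5 and Ctsc were not called by DESeq2. In the lipid list Hpgd, which breaks down prostaglandins, fell from 315 and 380 CPM to 99.7 and 92.9 CPM (log2 -1.79, adjusted p = 1.84e-08). The leukotriene genes Alox5 and Alox5ap were called higher, by 1.19 and 0.83, but neither was called by DESeq2 or without DBA library 2. Of 11 disease-associated microglia genes tested, Cd9, Fth1, Trem2 and Ctsd were lower and Ccl6 higher. Without DBA library 2 only Ccl6 was called, and by DESeq2 only Cd9 and Ccl6. Apoe was not called by edgeR over all 4 libraries but was called higher without DBA library 3, with 821 and 1146 CPM in BL6 and 2797 and 1526 CPM in DBA (log2 1.19, adjusted p = 0.43).

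The coagulation factor gene F13a1 is a member of the border macrophage list and was called higher. It stood at 74.6 and 83.2 CPM in BL6 and at 316 and 223 CPM in DBA (log2 1.84, SE 0.197, adjusted p = 5.70e-08). Of the 4 other members tested, Mrc1 (1.13, edgeR adjusted p = 0.064) and Cd163 (1.71, 0.065) lay close to the threshold. DESeq2 called Mrc1 higher but not Cd163, and both were called with every deposited gene entered. The median log2 difference of the list was 1.13 with all libraries. It was 0.97 without BL6 library 2 and 1.90 without BL6 library 3. Without DBA library 2 it fell to 0.56, and without DBA library 3 it was 1.81. The members tested varied between these fits. Without DBA library 2, F13a1 was still called higher. Whether more border macrophage nuclei in DBA libraries bear on it was not tested.

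Of 77 cytosolic ribosomal protein genes, 11 were called lower, none higher and 66 neither, with a median of -0.43. By DESeq2, and without DBA library 2, 5 were called lower. Rpl24 fell from 103 and 79.3 CPM to 11.8 and 13.8 CPM (log2 -2.79), and in the other glia its log2 difference was -2.87. Among 9 heat shock genes 3 were lower, the largest being Hspa8 (189 and 142 against 47.3 and 43.5 CPM, log2 -1.82). Hspa8 differed by -1.78 in the other glia, and it alone of this list was still called by DESeq2 and without DBA library 2. The 5 ribosomal genes Rpl13a, Rpl24, Rpl27a, Rpl29 and Rps10 and the chaperone gene Hspa8 kept their calls in all alternatives that tested them. Many ribosomal protein genes have processed copies that can share reads. None of 7 immediate early genes was called by edgeR or DESeq2, and 0 had an unadjusted p under 0.05. The neuronal markers gave 0 calls of 11 tested in the main edgeR test, 4 at an unadjusted p under 0.05 and 0 by DESeq2. Their median was -0.62, with summed levels of 3159 and 1870 CPM in BL6 and 1294 and 2503 CPM in DBA. Some edgeR alternatives called members lower: Nrg3 with total counts, Nrgn with no filter, and Grin2b, Syt1 and Nrg3 with the replicate block. Gabra2, a GABA-A receptor subunit of neurons, was called lower (101 and 57.2 against 35.5 and 33.6 CPM, log2 -1.18) but not by DESeq2 or without either DBA library, and the part of neuronal RNA in it was not tested. Gpnmb had no count in NN-MGC, and Alad had 3 to 10 counts per library and was not tested.

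**Figure D4:**
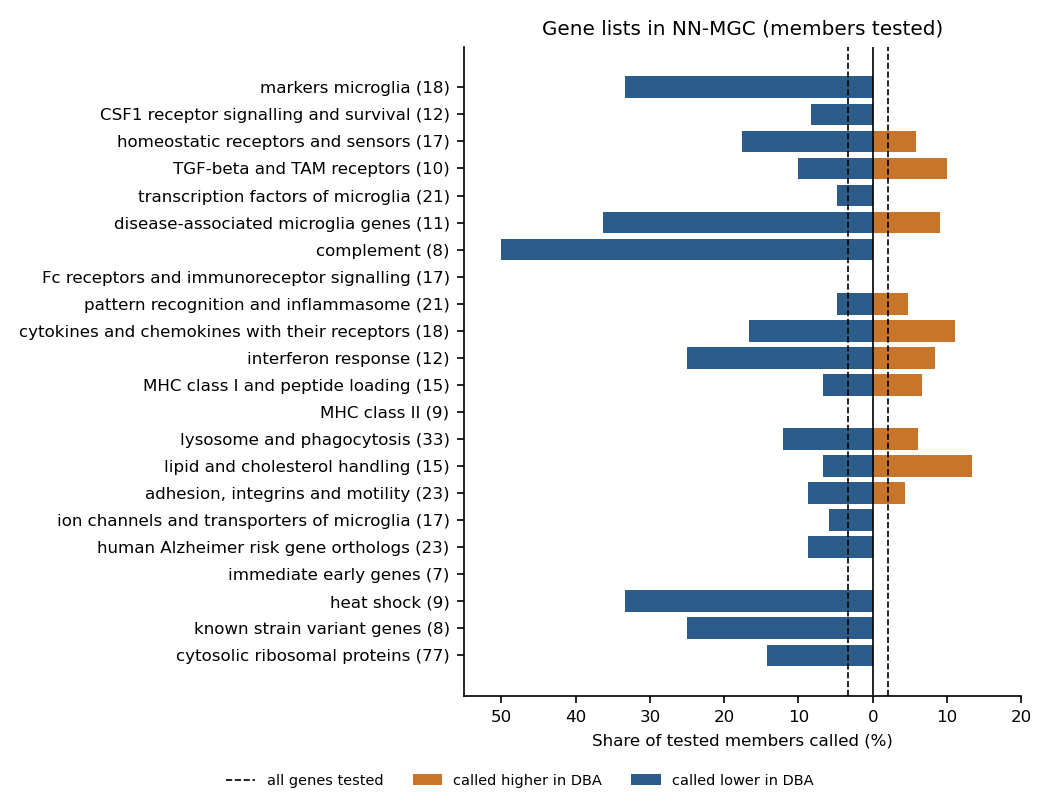
Share of the tested members of each gene list called higher (right) or lower (left) in DBA in NN-MGC, with the number tested in brackets and dashed lines at the shares over all 9427 genes, 2.08% higher and 3.29% lower. The complement list has 4 of 8 members lower, and the Fc receptor, MHC class II and immediate early lists have none called.

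The third comparison asked whether the strain difference in microglia differed from that in astrocytes, oligodendrocytes and their precursors of the same libraries. In a model with each library as a block, 300 of 16016 genes (1.87%) had such a difference, 176 upward and 124 downward in NN-MGC relative to the other glia. Of the 506 genes called in NN-MGC, 147 were among them, 88 higher and 59 lower in DBA, and 359 were not. Without DBA library 2 the count was 126 and without BL6 library 2 it was 166. A gene can be called here because it differs in the other glia and not in microglia.

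Gatm, for example, was higher in DBA in NN-MGC (36.7 against 317 CPM, libraries summed) and lower in DBA in the other glia (190 against 92.7 CPM). The difference of these differences was 4.10 (SE 0.231, adjusted p = 4.63e-66). Ccdc85a went from 32.5 to 744 CPM in NN-MGC and from 144 to 321 CPM in other glia (3.32, SE 0.233). In BL6 its level was lower in NN-MGC than in the other glia, and in DBA it was higher. Atp8a2 and Scoc, a small coiled-coil protein gene, fell in NN-MGC far more than in the other glia. Atp8a2 went from 634 to 18.2 CPM in NN-MGC and from 39.2 to 27.8 CPM in other glia (-4.65, SE 0.295, adjusted p = 5.86e-52), and Scoc had 261 and 214 counts in BL6 and 12 and 10 in DBA microglia, with 21.2 and 16.5 CPM in other glia (-3.32, SE 0.335).

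The remaining genes named by size had few counts in the other glia. Nlrp1b had 6 and 7 counts there in BL6 and DBA, against 259 and 204 in BL6 and 16 and 9 in DBA in NN-MGC (-4.09, adjusted p = 0.00282). Upk1b, a tetraspanin, had 7 and 10 counts there and fell in NN-MGC from 104 to 6.38 CPM (-4.99, adjusted p = 0.000103). Slfn8 had 7 and 2 counts there and rose in NN-MGC (4.79). For these 3 genes the strain difference in the other glia rests on few counts, and each lost its call without 1 library: DBA library 3 for Nlrp1b, DBA library 2 for Upk1b and BL6 library 2 for Slfn8.

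Cd200r1, the receptor for the restraining ligand CD200, rose in NN-MGC from 72.8 to 148 CPM. In the other glia it had 2 counts in BL6 and 89 in DBA, so the difference was downward (-4.63, adjusted p = 1.59e-09). Arhgdib, a regulator of small GTPases in leukocytes, was at 76.3 and 76.7 CPM in BL6 and 74.4 and 75.1 CPM in DBA microglia, while the other glia had 50 counts in BL6 and 2 in DBA (3.87, adjusted p = 0.000149). Its call was lost without BL6 library 2 (adjusted p = 0.0891). Pde6h, a phosphodiesterase subunit, rose in NN-MGC from 42.9 and 23.4 CPM to 98.0 and 90.9 CPM and had 26 counts in BL6 and none in DBA in the other glia (7.18). For Cd200r1, Arhgdib and Pde6h 1 strain had at most 2 counts in the other glia, so the size of these differences is uncertain. Ifitm10 fell more in NN-MGC than in the other glia (-2.01, adjusted p = 6.08e-05), and F13a1 rose more (2.26, adjusted p = 9.57e-06). The C1q genes, Fcrls and Itgam were not called in this comparison. Over all other nuclei together C1qa, Fcrls and Itgam stood at 3.88, 0.902 and 0.394 CPM, so little signal outside NN-MGC was there to compare. Csf1r, at 3.12 CPM over all other nuclei against 1227 CPM in NN-MGC, was called (1.44, adjusted p = 0.0083). Its log2 difference was -1.56 in the other glia against -0.13 in NN-MGC. That call was lost without BL6 library 2, without either DBA library, and against all other nuclei (0.51, adjusted p = 0.564).

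**Figure D5:**
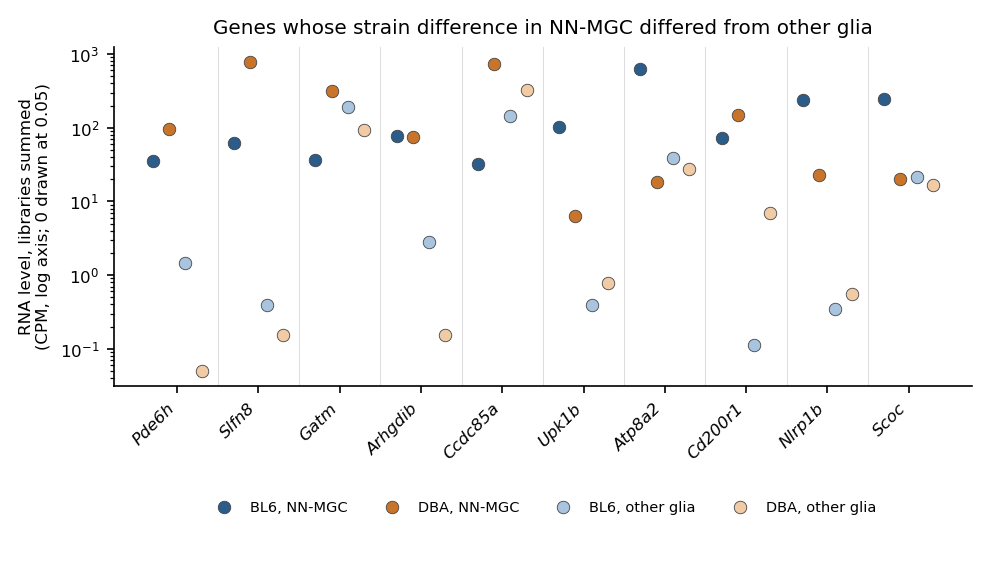
RNA level (CPM, log axis, with 0 drawn at 0.05; libraries summed) of the 10 genes with the largest difference between the strain difference in NN-MGC and that in other glia. Gatm rises from BL6 to DBA in NN-MGC (36.7 to 317 CPM) and falls in other glia (190 to 92.7 CPM), while Arhgdib is level in NN-MGC (76.5 and 74.7 CPM).

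The last comparison asked where open chromatin of microglia differed between the strains. Of 9057 peaks tested with edgeR, 21 (0.232%) were called, 15 higher and 6 lower in DBA. All 21 leaned the same way in the other glia. Of the 15 higher peaks, 6 overlapped or lay within 10 kb of Sfi1 on chromosome 11 and 2 overlapped the pseudogene Pisd-ps2 on chromosome 17. As for the RNA, near copies of Sfi1 and Pisd can share reads, which makes the counts of these peaks uncertain. The peak inside Sfi1 at chr11:3157761-3158728 had 0 and 2 counts in BL6 and 37 and 93 in DBA (log2 5.78, SE 0.498, adjusted p = 9.73e-10). Among lower peaks, 3 on unplaced scaffolds and 1 at chr6:3200915-3201604 had no DBA count in NN-MGC. The peak of scaffold JH584304.1 from 58462 to 60751 had 171 and 264 counts in BL6.

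A peak at E330020D12Rik (chr1:153414044-153415555) had 3 and 12 counts in BL6 and 27 and 74 in DBA (log2 2.66, SE 0.358, adjusted p = 1.98e-05). The other glia had 2.72 CPM there in BL6, against 24.7 CPM in DBA. No peak within 2 kb of the microglial markers named above was called. The peak beside C1qc and C1qa had 5 and 12 counts in BL6 and 3 and 8 in DBA, 19.3 and 26.0 against 10.5 and 16.5 CPM, too few for it to enter the test. Peaks within 2 kb of the ends of called genes with at least 20 ATAC counts differed in the direction of the RNA for 213 of 358 genes (59.5%), against 4010 of 7887 (50.8%) over all genes tested. These shares are descriptions, since neighbouring genes can share a peak.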

How the data were processed

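The authors deposited RNA counts per gene and ATAC counts per peak, already summed by cell type within each library, and a table of nuclei per type. Cell Ranger 6.0.2, Cell Ranger ATAC 2.0.0 and Seurat 4.0.5 are named by the submitters' processing notes. Peak and gene coordinates are mm10. Filters on nuclei, treatment of doublets, the annotation of each strain and the ATAC counting unit are not given in the sources used here. Types carry the authors' names. The 7 count columns of the type Neuronal-Aldoa-Cst3 were not used, so counts come from 21 types and shares of nuclei from all 22, although the plan named 22 for both. The 16 methylation samples were not analysed here. Library numbers are 2 and 3 in the count columns but 1 and 2 in the sample titles, so each column was assigned to a strain and not to a sample.

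Strains were compared with edgeR 4.0.16 in R 4.3.3 (robust quasi-likelihood test, TMM scaling, filterByExpr with minimum count 10). Genes needed a summed count of 10 in both strains. The standard error is the log2 difference over the square root of F. Shares were tested by exact permutation. The steps were tested on simulated data. Named genes were the 10 called each way with the largest change (mean log2 CPM at least 6), 5 each way for the comparison with other glia, 15 by ratio to the next type, the 5 most abundant, and members of 30 gene lists; provisional symbols were passed over between strains. For ATAC the 5 called peaks each way with the largest change and the 10 with the largest ratio could be named; the peak at E330020D12Rik was chosen after its values were seen. Members and lists were chosen with earlier results of these data known. Alternatives were RLE factors, total counts, DESeq2 1.42.0, no filter, leaving out each library, a replicate block and other feature sets; the comparison of peaks among types of at least 500000 counts was chosen after seeing the data. Library numbers did not pair the samples. Some members of the gene lists are counted in their lists but are not reported here by name.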

Additional observations from a re-analysis of the deposited data

Results flagged for a closer look

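The 10 genes below were picked out because their strain difference in NN-MGC differed from that in the other glia of the same libraries, by a test of that difference itself (edgeR, adjusted p under 0.05). Each value is the difference of the log2 differences, NN-MGC minus other glia. Upward were Pde6h (7.18), Slfn8 (4.79), Gatm (4.10), Arhgdib (3.87) and Ccdc85a (3.32). Downward were Upk1b (-4.99), Atp8a2 (-4.65), Cd200r1 (-4.63), Nlrp1b (-4.09) and Scoc (-3.32). In the other glia Pde6h, Slfn8, Arhgdib, Upk1b, Cd200r1 and Nlrp1b had few counts in at least 1 strain, so the size of their values is uncertain. Gatm, Ccdc85a, Atp8a2, Cd200r1, Pde6h and Scoc kept their calls in every alternative that tested them.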

How the results depend on the processing

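No named result reversed under any alternative run. For RNA between strains, 506 genes were called, 184 by DESeq2, 821 with every deposited gene entered, and 200 to 484 with 1 library left out. All 177 genes shared with DESeq2 and all 192 shared without DBA library 2 had the same sign. The replicate block gave 610 RNA genes and 21 peaks; the numbers did not pair the libraries (correlation -0.0487). Against other glia 300 genes were called, and 126 to 245 with 1 library left out. DESeq2 was not run for that comparison. Of 75 named RNA genes 37 kept their call in every alternative that tested them and 38 lost it in at least 1. For the comparison with other glia 9 of 26 genes kept it, and of the called peaks 12 of 21. Peak counts ran from 17 to 24. The restriction to types of at least 500000 ATAC counts was chosen after seeing the data. With 12 to 35 ATAC nuclei per library, 9057 of 203250 peaks with a count passed the filter, and differences at the others were not tested.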

Other observations

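Pde6h and Arhgdib, which stood out against the other glia, are neighbours on chromosome 6 (mm10), Arhgdib from 136923655 to 136941899 and Pde6h from 136952218 to 136963485. In the other glia Arhgdib had 50 counts in BL6 and 2 in DBA, and Pde6h had 26 and 0. In NN-MGC Pde6h had 50 and 18 counts in BL6 and 58 and 46 in DBA, and Arhgdib 89 and 59 against 44 and 38.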
